A study of Mus musculus with 6 samples.

Results

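The keratins of the basal layer and of the corneal epithelium, Krt5, Krt14, Krt15, Krt17 and Krt12, were examined in corneas taken whole from mouse pups on postnatal day 3. There were 3 DN-Clim arrays and 3 wild-type (WT) arrays of littermates. The DN-Clim pups carried a transgene in which the keratin 14 promoter drives a dominant negative form of CLIM, a cofactor that binds LIM-domain transcription regulators, so the transgene acts in the cells that make Krt14. The WT littermates carried no transgene as far as the labels state. Nothing in the labels says whether a replicate was 1 pup or a pool, so part of the spread between replicates may be technical. A limma p-value weighs a difference against that spread, drawn toward a variance shared by all probe sets tested. Members were the probe sets of the Affymetrix Mouse Gene 1.0 ST array that the array annotation pairs with 1 of these symbols alone. Each of the 5 genes had 1 such probe set, out of 19938 genes with a probe set of their own.

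Keratins are the intermediate filament proteins of epithelia, and a filament forms from pairs of an acidic type I and a basic type II keratin. Basal cells of stratified epithelia pair Krt5 (type II) with Krt14 (type I), Krt15 is a further type I keratin of basal cells and is used as a stem cell marker in the hair follicle bulge and the limbus, and Krt17 is a type I keratin of hair follicles and injured or stressed epithelium. Krt12 is the type I keratin particular to corneal epithelium, where it is taken as the sign of corneal fate and, in the mouse, pairs with Krt5. The comparison asks whether these keratins depended on CLIM function in the neonatal cornea. The study's title names the maintenance of corneal epithelial stem cells as its subject.

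On GRCm38.p6 (RefSeq), the 4 type I genes lie in the keratin cluster of chromosome 11, Krt12 at chr11:99415664-99422593, Krt15 at chr11:100131759-100135949, Krt14 at chr11:100203162-100207510 and Krt17 at chr11:100256215-100261029. Krt5 lies in the type II cluster at chr15:101707069-101712905. The array annotation used for names gives no build or probe positions. Type I keratins have similar sequences, and Krt14, Krt16, Krt17 and Krt42 are close neighbours. How much of a probe set's signal came from a related keratin was not tested.

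The 250 bases before the RefSeq start are shown for Krt5 and Krt12, the keratin pair of the mouse cornea, because the arrays of the groups did not overlap for Krt5 and did for Krt12. Neither keratin passed the threshold used below, so this choice does not set a changed keratin against an unchanged one. Capitals mark TATAAA, the TATA box, TAAT, the core bound by LIM homeodomain proteins, and GATAA, bound by GATA factors, which join CLIM complexes in blood cells, on either strand. The Krt5 window is chr15:101712906-101713155 and the Krt12 window chr11:99422260-99422509, both on the minus strand of GRCm38.p6 and written 5′ to 3′ along the gene. The Krt12 start used lies 334 bases inside the gene, so its window lies within the gene and not upstream of the whole gene.
Krt5: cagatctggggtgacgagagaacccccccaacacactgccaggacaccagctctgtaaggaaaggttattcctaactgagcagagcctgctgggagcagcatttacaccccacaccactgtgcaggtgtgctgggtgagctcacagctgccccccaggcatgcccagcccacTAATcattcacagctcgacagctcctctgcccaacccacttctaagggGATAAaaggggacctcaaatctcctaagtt
Krt12: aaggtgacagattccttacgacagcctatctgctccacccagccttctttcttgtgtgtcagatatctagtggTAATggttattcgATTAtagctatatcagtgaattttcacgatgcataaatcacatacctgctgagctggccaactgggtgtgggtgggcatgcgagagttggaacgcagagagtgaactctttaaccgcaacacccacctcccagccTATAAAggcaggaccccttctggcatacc

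Krt12 held a TATAAA whose first base is 29 bases before the start, and 12.4% of 32851 RefSeq windows of this length held one. Krt5 held no exact TATAAA, and its GATAA lay 30 bases before the start, a motif found in 22.6% of windows. With the base that follows, this GATAA shares the letters ATAAA with TATAAA and lies at nearly the same distance from the start. Whether it serves as a TATA box or binds GATA factors was not tested. TAAT was found once in Krt5 and 2 times in Krt12, and in 54.9% of all windows. These matches describe the letters of the windows and are not binding sites. The Krt14 window of the same source begins at a transcript start 1480 bases inside the gene, further inside than the 334 of Krt12. It is not the promoter upstream of the whole gene and is not shown. Krt15 and Krt17 were not matched.

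Signal from other tissues differed between arrays. DN-Clim replicates 1 and 2 carried a lens signal. The summed intensity of the 18 measured lens markers was 167800 and 174800 on these arrays. It was 4801 on DN-Clim replicate 3, and 6978 to 12770 on the WT arrays, and no lens marker was at 0 on any array. For the 13 measured retina markers the sum was 18410, 25820 and 6902 on DN-Clim replicates 1, 2 and 3, against 4176 to 11650 in WT. For the 20 keratocyte and stroma markers it was 30440, 21060 and 61890 on these arrays, against 60920 to 71120 in WT. Of 15 vascular endothelial markers Emcn, a sialomucin, fell (-2.44, limma adjusted p = 0.0113), and the sum was 3911 to 5054 in DN-Clim against 6688 to 7060 in WT. By its mean Krt12, which defines the tissue, lay at the 95.6th percentile of brightness among the tested probe sets. The array median ran from 7.95 to 8.21 in DN-Clim and from 8.11 to 8.17 in WT on the scale used here, log2(intensity + 16). Fewer cells of a type and less RNA per cell cannot be told apart in whole-cornea RNA.

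Differences were fitted with limma over 23410 probe sets, DN-Clim minus WT, and adjusted over all of them (Benjamini-Hochberg, threshold 0.05). None of the 5 keratins passed with all 6 arrays, where 0.0128% of all probe sets did so in either direction. For Krt5 and Krt14 the highest DN-Clim array was still lower than the lowest WT array. That was so for 6.95% of all probe sets, while 3.2% had all DN-Clim arrays above WT. Krt15, Krt17 and Krt12 overlapped between the groups. At an unadjusted p under 0.05, 5.94% of probe sets passed, and Krt14 was the 1 keratin of the 5 that did.

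**Figure D1:**
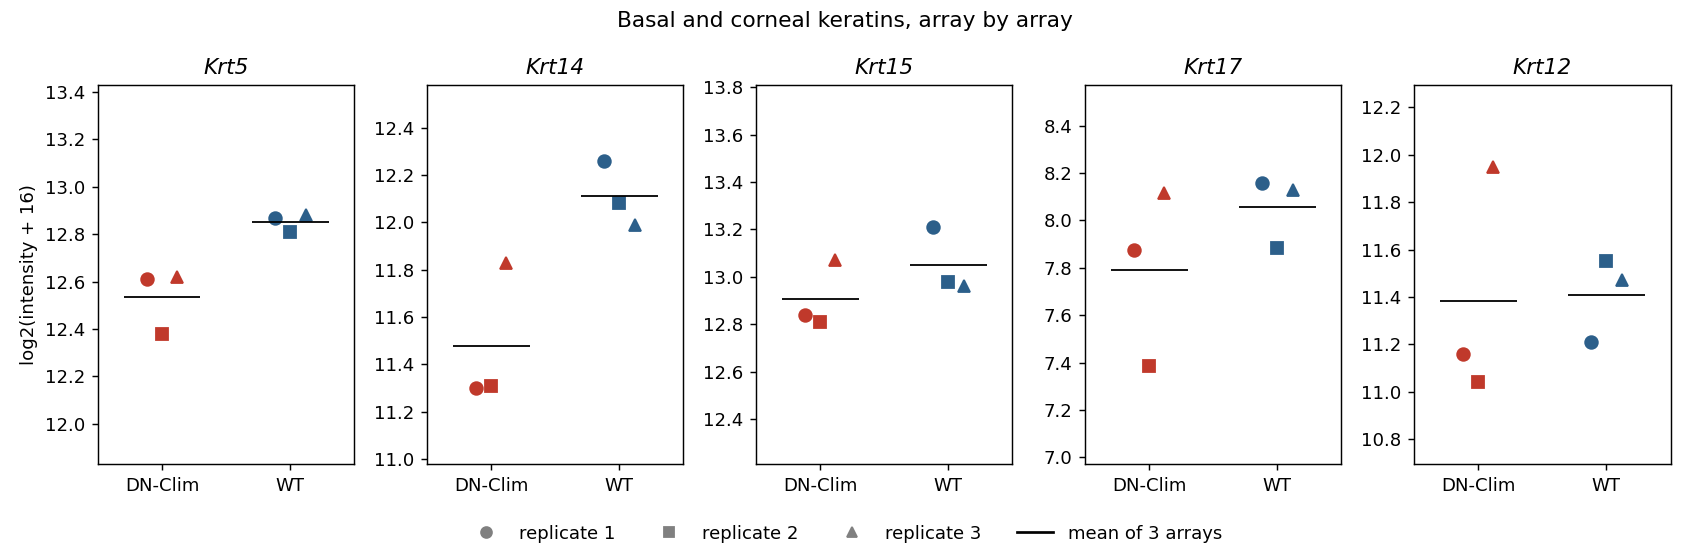
Each panel plots 1 keratin as log2(intensity + 16) on the 3 DN-Clim arrays (red, left) and the 3 WT arrays (blue, right), with a bar at the mean and all panels spanning the same number of log2 units. Krt5 and Krt14 show no overlap between the groups, and the third DN-Clim array is the highest of the 6 for Krt12, at 11.95.

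Krt5, the type II partner of the basal pair, read 12.61, 12.38 and 12.62 on DN-Clim replicates 1, 2 and 3, against 12.87, 12.81 and 12.88 on WT replicates 1, 2 and 3 (log2). All 3 DN-Clim arrays were low, the WT arrays lay close together, and the groups did not overlap. The means were 12.54 ± 0.13 in DN-Clim and 12.85 ± 0.04 in WT (SD, n = 3 each). The difference was -0.31 (SE 0.173, 95% interval -0.70 to 0.08), a ratio of 0.804, with a limma adjusted p of 0.933. This SE draws on the variance shared by all probe sets as well as on the spread of these arrays. With a trended robust prior it was 0.109 (limma adjusted p = 0.723). DN-Clim replicate 3, the array with the lowest summed lens signal, stood at -0.233 relative to the WT mean, close to the -0.24 of replicate 1.

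Krt14, the type I partner, lends its promoter to the transgene. It read 11.30, 11.31 and 11.83 in DN-Clim, against 12.26, 12.08 and 11.99 in WT. Before the logarithm these were intensities of 2504, 2516 and 3614 in DN-Clim and 4894, 4305 and 4053 in WT. Replicates 1 and 2 were the low arrays, and replicate 3 lay just under the lowest WT array. The means were 11.48 ± 0.30 in DN-Clim and 12.11 ± 0.14 in WT (SD, n = 3 each). The difference was -0.63 (SE 0.208, 95% interval -1.10 to -0.16), a ratio of 0.645, with a limma unadjusted p of 0.0135 and an adjusted p of 0.721. Its unadjusted p ranked 437th among the 23410 probe sets. Relative to the WT mean the DN-Clim arrays stood at -0.81, -0.804 and -0.284.

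The Krt14 call turned on which arrays were used. Without DN-Clim replicate 3 it fell by 0.807 (SE 0.159, limma adjusted p = 0.0471), in a fit of the 2 lens-carrying DN-Clim arrays against 3 WT where 1.52% of probe sets passed as lower. With replicate 3 alone against WT the difference was -0.284 (adjusted p = 0.442), and in a fit that took the lens signal as covariate it was -0.38 (adjusted p = 0.376).

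Krt15, the basal keratin used as a stem cell marker, read 12.84, 12.81 and 13.07 in DN-Clim, against 13.21, 12.98 and 12.96 in WT. Replicate 3 of DN-Clim lay above 2 of the 3 WT arrays, and the groups overlapped. The means were 12.91 ± 0.14 in DN-Clim and 13.05 ± 0.14 in WT (SD, n = 3 each). The difference was -0.14 (SE 0.182, 95% interval -0.55 to 0.27, limma adjusted p = 0.999), so that a change down by 0.55 or up by 0.27 lies within what these arrays allow.

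Krt17, the keratin of follicles and stressed epithelium, was dim here, at the 38.5th percentile of brightness. It read 7.88, 7.39 and 8.11 in DN-Clim, against 8.16, 7.88 and 8.13 in WT. One low array, DN-Clim replicate 2, set most of the difference, and the groups overlapped. The difference was -0.26 (SE 0.224, 95% interval -0.77 to 0.24, adjusted p = 0.999), and it was -0.06 without DN-Clim replicate 2. With intensities of 151.3 to 261 in DN-Clim and 220.1 to 269.6 in WT, the offset of 16 makes up a larger part of its values than for the other members.

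Krt12, the keratin of corneal fate, read 11.16, 11.04 and 11.95 in DN-Clim, against 11.21, 11.55 and 11.47 in WT. DN-Clim held both the 2 lowest arrays and the highest one, and its SD of 0.50 was well above the 0.18 of WT. The means were 11.38 in DN-Clim and 11.41 in WT (n = 3 each). The difference was -0.03 (SE 0.26, 95% interval -0.61 to 0.56, limma adjusted p = 0.999). Relative to the WT mean Krt12 stood at 0.54 on DN-Clim replicate 3 and at -0.251 and -0.377 on replicates 1 and 2, so the arrays labelled DN-Clim did not move one way. Replicate 3 also had the highest array median. After each array was centred on its median the Krt12 values were 11.23, 11.19 and 11.84 in DN-Clim and 11.19, 11.49 and 11.46 in WT, and replicate 3 remained the highest.

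**Figure D2:**
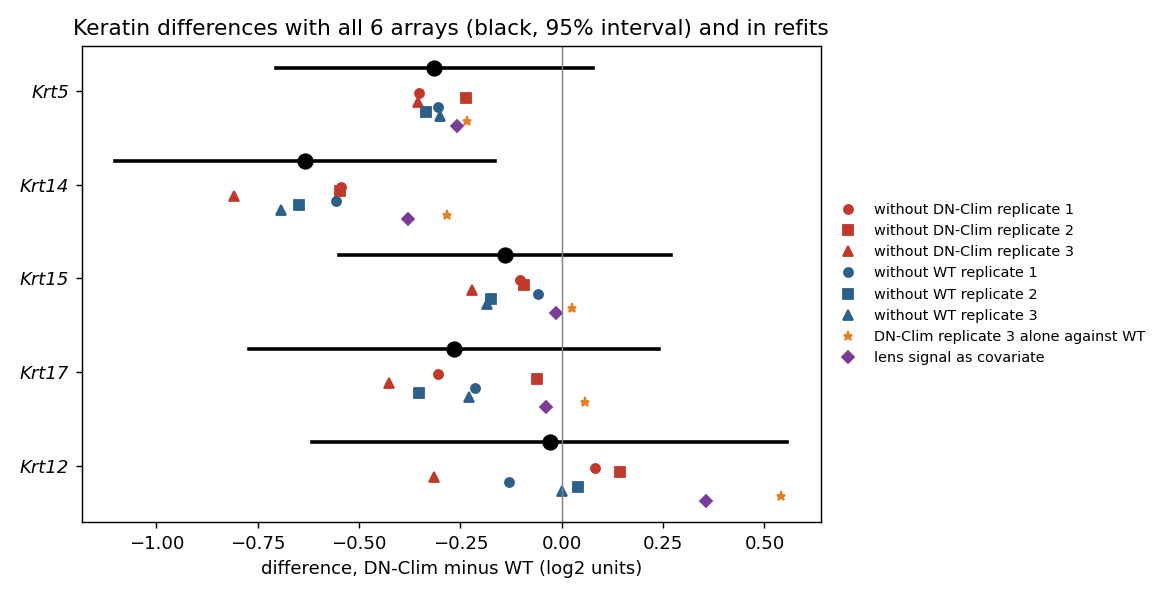
The difference of each keratin (DN-Clim minus WT, log2 units) is plotted with all 6 arrays as a black point with its 95% interval, and below it without each array in turn, with DN-Clim replicate 3 alone, and with the lens signal as a covariate. Krt5 and Krt14 stay below 0 in every refit drawn, from -0.807 to -0.284 for Krt14, whereas Krt12 runs from -0.314 to 0.54.

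Because a shift of a whole array moves all keratins together, the changes were also set against each other within each array. These are differences of changes and say nothing of the level of one gene against another. Krt14 minus Krt15, with the WT mean set to 0, was -0.60, -0.57 and -0.31 on the DN-Clim arrays, against -0.01, 0.04 and -0.03 on the WT arrays. All 3 DN-Clim arrays lay below WT, replicate 3 included, and the WT arrays differed by little. The mean difference was -0.49 (SD 0.16 in DN-Clim and 0.0351 in WT, n = 3 each, exact two-sided permutation p = 0.1). Krt14 minus Krt12 was -0.56, -0.43 and -0.82 in DN-Clim, against 0.35, -0.17 and -0.18 in WT, a difference of -0.60 (exact p = 0.1). Here too the groups did not overlap. How often other pairs of genes separate the groups in this way was not counted. Krt14 had the largest negative difference of the keratins examined, and the pairs were chosen with earlier results known.

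Against its partner Krt5, Krt14 stood at -0.57, -0.34 and -0.05 in DN-Clim and at 0.14, 0.01 and -0.15 in WT, and the third DN-Clim array lay among the WT arrays. The difference was -0.32 (exact p = 0.2). Against Krt17 it was -0.37 (exact p = 0.2). With 3 against 3 arrays no p below 0.1 is possible. Of 9 relative changes computed, these 4 and the 5 of the next paragraph, the smallest p adjusted over all 9 was 0.36. Since the design could not pass 0.05, these p-values do not tell whether Krt14 and the other keratins changed unequally.

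**Figure D3:**
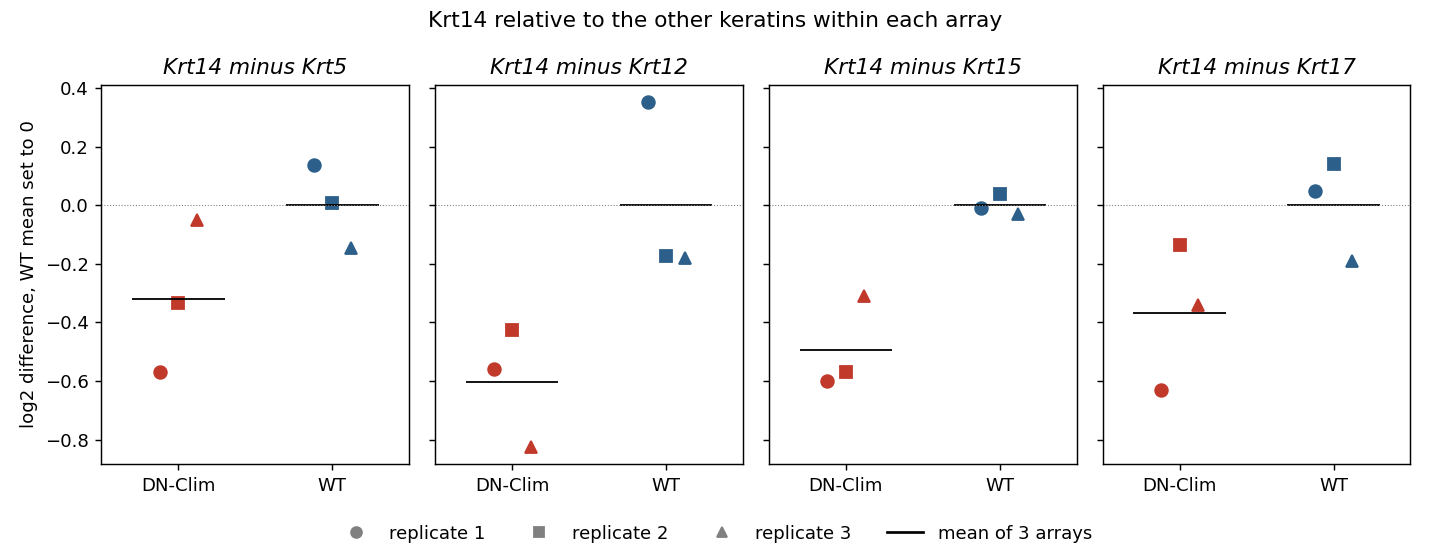
Within each array the log2 value of Krt14 minus that of another keratin is plotted with the WT mean set to 0, for 3 DN-Clim arrays (red, left) and 3 WT arrays (blue, right). Relative to Krt15 and to Krt12 the DN-Clim arrays all lie below the WT arrays, while relative to Krt5 they overlap.

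The keratins were next set against epithelial genes that are not keratins. This list, 11 of 12 measured, holds genes of adhesion, splicing, trafficking, proteolysis and transcription in epithelia in general. None passed, and 10 were below 0, with a median difference of -0.37, beside -0.04 over all probe sets tested. Of those 23410 probe sets, 13390 were below 0. Rab25, a trafficking GTPase of epithelia, read 9.18, 8.78 and 9.39 in DN-Clim, against 10.27, 9.93 and 9.68 in WT (-0.84, limma adjusted p = 0.622). Esrp1, an epithelial splicing factor, differed by -0.74 (adjusted p = 0.642), and E-cadherin (Cdh1) by -0.48 (adjusted p = 0.954). The mean of the list was 8.77, 8.36 and 8.87 in DN-Clim and 9.41, 9.04 and 8.85 in WT, so that DN-Clim replicate 3 and WT replicate 3 were alike.

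Relative to this mean, Krt14 differed by -0.20 (exact permutation p = 0.4), with DN-Clim arrays at -0.48, -0.07 and -0.05 and WT arrays at -0.16, 0.03 and 0.13. Of the 3 DN-Clim arrays 2 lay within the WT range. Krt5 differed by 0.12 (exact p = 0.7), Krt15 by 0.30 (exact p = 0.2), Krt17 by 0.17 (exact p = 0.4) and Krt12 by 0.40 (exact p = 0.4), each adjusted over the 9 comparisons to 0.36 or more. Krt14 was the 1 member that lay further down than the epithelial list.

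In the rest of the keratin family no gene passed with all 6 arrays. Of the 23 other keratins measured on chromosome 11, 15 were below 0 with a median of -0.07, and the lowest was Krt27, a root sheath keratin, at -0.61. Krt14, at -0.63 (SE 0.208), had the largest negative difference of the keratins measured on that chromosome. Its lead over Krt27 (SE 0.291) was small beside these SEs. Of the 24 others on chromosome 15, 16 were below 0 with a median of -0.17. Both counts stand beside 13390 of 23410 below 0 over all probe sets. Krt4 and Krt6a there had larger negative differences than Krt14.

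The list of 22 other epithelial keratins had 15 below 0 (13390 of 23410 over all probe sets), none past the threshold, and a median of -0.24. Krt6a, a type II keratin of hair follicles and activated epithelium, read 10.16, 10.16 and 11.19 in DN-Clim, against 11.32, 11.24 and 11.15 in WT (-0.73, adjusted p = 0.796). It was low on the 2 lens-carrying arrays alone. Without DN-Clim replicate 3 it fell by 1.08 (limma adjusted p = 0.0155), in a fit where 1.52% of probe sets passed as lower. Krt7, a keratin of simple and conjunctival epithelium, had all DN-Clim arrays below WT (-0.63, limma adjusted p = 0.815), as did 6.95% of all probe sets. Krt19, of limbal and conjunctival cells, differed by -0.53 (limma adjusted p = 0.859). Of 21 hair and root sheath keratins none passed with all 6 arrays, and their median was -0.06. Krt27 had an adjusted p of 0.874, Krt35 differed by -0.29 and Krt33b by -0.04.

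**Figure D4:**
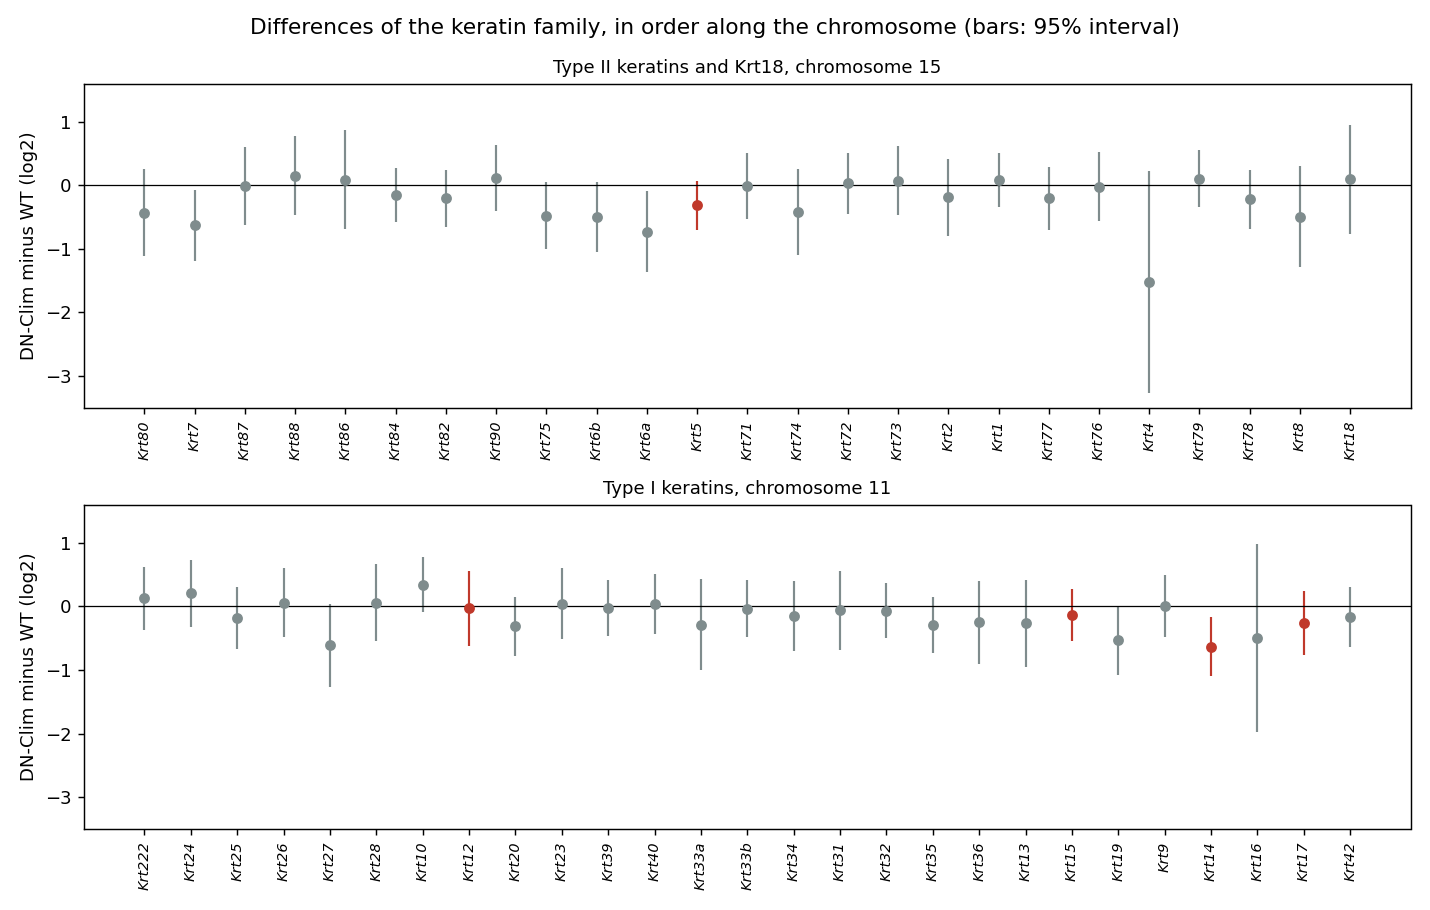
The difference of each measured keratin (DN-Clim minus WT, log2 units, with its 95% interval) is plotted in order along chromosomes 15 (above) and 11 (below), the 5 keratins described here in red. Krt14 is the lowest point of the chromosome 11 row at -0.63, and the interval of Krt4 is wide because its WT arrays lay far apart.

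Krt4, a keratin of mucosal epithelium, spread widely among the WT arrays, as it read 6.95, 6.18 and 7.40 in DN-Clim, against 10.40, 6.68 and 8.03 in WT. Keratins also mark the epithelia next to the cornea. Of 12 conjunctiva and goblet cell markers none passed with all 6 arrays (median -0.19), and their summed intensity was 6242 to 11170 in DN-Clim against 9558 to 14160 in WT. Of 11 epidermal markers none passed with all 6 arrays (median -0.19). Krtdap, a secreted product of differentiating keratinocytes, read 9.99, 9.18 and 9.34 in DN-Clim, against 10.40, 10.87 and 10.92 in WT (-1.23, adjusted p = 0.473). Sbsn, which is secreted by the same cells, differed by -0.54 (adjusted p = 0.693), and Calml3, a calmodulin-like protein of epithelia, by -0.39 (adjusted p = 0.859). These were the 3 epidermal markers with all DN-Clim arrays below WT (6.95% over all probe sets). The list as a whole was split, with 6 genes below 0 and 5 above. Krt10, a keratin of differentiating epidermis, had all DN-Clim arrays above WT (0.34, limma adjusted p = 0.936), as did 3.2% of all probe sets.

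Genes that anchor keratin filaments at desmosomes and hemidesmosomes, 20 measured, had 19 below 0, a median of -0.31 and none past the threshold. Over all probe sets 13390 of 23410 were below 0. Cd151, a tetraspanin of hemidesmosomes, read 8.32, 8.28 and 8.58 in DN-Clim, against 9.57, 9.12 and 9.12 in WT (-0.88, adjusted p = 0.562). Itga6, the integrin chain of hemidesmosomes, differed by -0.49 (adjusted p = 0.845), and Perp, a desmosomal membrane protein, by -0.29 (adjusted p = 0.999). In this list 4 genes had all DN-Clim arrays below WT and 1, Pkp2, had all above, beside 6.95% and 3.2% over all probe sets. The list medians on DN-Clim replicates 1, 2 and 3, relative to the WT mean, were -0.16, -0.68 and -0.07.

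Of 19 transcription regulators of epithelial and corneal fate 16 were below 0 (13390 of 23410 over all probe sets), the median was -0.26 and none passed. Zfp750, a regulator of keratinocyte differentiation, differed by -0.54 (adjusted p = 0.867) and Ovol1, an epithelial zinc finger factor, by -0.42 (adjusted p = 0.879). Pax6, the eye factor needed for Krt12 expression, read 11.89, 11.88 and 11.72 in DN-Clim, against 11.59, 11.60 and 11.72 in WT. Pax6 is also made in lens and retina, whose markers were high on DN-Clim replicates 1 and 2. Its part from those tissues was not tested.

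Of the 13 corneal epithelial markers other than keratins, 1 fell with all 6 arrays and the median was -0.34. Psca, a surface protein, read 7.93, 7.99 and 7.97 in DN-Clim, against 9.85, 9.999 and 9.65 in WT (-1.87, limma adjusted p = 0.023), and it was as low on DN-Clim replicate 3 as on the other DN-Clim arrays. Aldh3a1, an aldehyde dehydrogenase abundant in corneal epithelium, read 8.33, 8.48 and 10 in DN-Clim, against 10.04, 10.06 and 9.98 in WT. Like Krt14 it was low on replicates 1 and 2, but on replicate 3 it lay within the WT range.

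As a description over arrays that share array-wide signal and, on 2 of them, the lens signal, Pearson's r was 0.87 between Krt5 and Krt14, 0.85 between Krt14 and Krt15, 0.82 between Krt5 and Krt17, 0.76 between Krt15 and Krt17, 0.73 between Krt14 and Krt17 and 0.64 between Krt5 and Krt15. With Krt12 it was 0.28 for Krt5, 0.42 for Krt14, 0.41 for Krt15 and 0.57 for Krt17. By Spearman's rho the order differed, with 0.657 between Krt12 and Krt15 and 0.6 between Krt5 and Krt15.

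Among 12737 named genes with an SD of at least 0.2 over the 6 arrays, those most like each keratin all had r above 0.98, and such values are common over so few arrays. For Krt14, 145 genes had r above 0.95, led by Plek2 (0.995), Aldh3b2 (0.993) and Cacna1c (0.992). For Krt5 they were Vamp8 (0.995), Calcrl (0.992) and Cd200r1 (0.991). For Krt15 they were Mir3068, Fgf7 and Ripk4 (0.989 to 0.993), and for Krt17 Ifitm6, Denn2b and Plcd3 (0.985 to 0.993). For Krt12, 349 genes had r above 0.95, and the closest were Itih1 (0.998), Mybpc3 (0.996) and Prss58 (0.994). Their values ran from 6.81 to 8.55, and like Krt12 they were highest on DN-Clim replicate 3. Vamp8, a SNARE protein of secretory vesicles, read 11.19, 10.79 and 11.15 in DN-Clim, against 11.70, 11.56 and 11.64 in WT, and of these 15 genes none passed with all 6 arrays.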

How the data were processed

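Affymetrix Mouse Gene 1.0 ST arrays of 3 DN-Clim and 3 WT whole corneas were used. Per the labels' protocols, cDNA was amplified with a NuGEN kit. The deposited values are linear probe set intensities, made by the authors with Affymetrix Expression Console 1.1 and PLIER per the submitters' processing notes. The sources used here do not give the background correction or the normalization. Of 35557 probe sets, 23410 had at least 1 gene and were tested (21789 with 1 symbol). Values were taken as log2(intensity + 16), which understates changes of dim genes. Array medians differed by 0.267, under the 0.5 set for centring. limma 3.58.1 in R 4.3.3 gave the adjusted p-values of all fits of differences, and the fit was tested on simulated data. A gene's brightest probe set stood for it. Relative changes used exact permutation tests over 20 labellings, with their p-values adjusted together (Benjamini-Hochberg). Array number limits the precision. Members, lists and tests were chosen with earlier results of these data known. Named were the 5 keratins, passing members of each list (else the 2 with the smallest p and the brightest), and the 3 genes most like each keratin. Krt4, Krt10, Pkp2, Aldh3a1 and genes setting a range were named after their values were seen. Alternatives covered offset, normalization, probe sets, priors, weights, pairing, single arrays and the lens signal.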

Additional observations from a re-analysis of the deposited data

How the results depend on the processing

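Each keratin had 1 probe set, so no other could be tried. Of the member differences, 73 kept direction and side of the threshold under an alternative, 2 gained a call and 9 turned. The gains were Krt14 without DN-Clim replicate 3 and with array weights (-0.766, adjusted p = 0.00881, range over its alternatives 0.00881 to 1). In the fit with array weights 2059 of 23410 probe sets passed in either direction. These weights, from limma's gene-by-gene method because the default did not converge, were 3.06 for DN-Clim replicate 1 and 0.199 for DN-Clim replicate 3. Krt12 turned to 0.0411 with median centring, 0.0815 without DN-Clim replicate 1, 0.145 without DN-Clim replicate 2, 0.0408 without WT replicate 2, 0.000805 without WT replicate 3, 0.54 with DN-Clim replicate 3 alone and 0.357 with the lens covariate. With replicate 3 alone Krt15 turned to 0.0263 and Krt17 to 0.0576. With single arrays left out Krt12 ran from -0.314 to 0.145 and Krt14 from -0.807 to -0.544. Of the relative changes, Krt5 against the epithelial list ran from -0.026 without WT replicate 1 to 0.257 without WT replicate 3, and the other 85 comparisons kept direction. The cause was not tested.

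The count of 3 probe sets past the threshold became 1 with quantile normalization, 0 over all probe sets of the table, 5 with a trended robust prior, 2059 with array weights, 9 with the replicate block and 79 with DN-Clim replicate 3 alone, and 0 to 483 with single arrays left out. Deviations of same-numbered arrays from their group means correlated at 0.0172, -0.206 and -0.436. These deviations also carry the lens and array-wide signal, so they cannot settle whether replicate numbers pair the samples. The replicate block left Krt14 at -0.633 (limma adjusted p = 0.874). Without DN-Clim replicate 3 the calls in the epithelial and keratin lists were Krt6a, Krt74, Cd151, Esrp1, Aldh3a1 and Psca, all lower, while 12 lens and 2 retina genes rose and 12 stroma and 3 vascular genes fell. In that fit 483 of 23410 probe sets passed in either direction, and 1.52% passed as lower. With array weights 2 other epithelial keratins passed, 2 anchoring genes, 3 epithelial reference genes, 2 corneal markers, 1 hair keratin, 3 epidermal genes and 1 conjunctival gene, all lower, while 15 lens and 10 retina genes rose and 18 stroma and 6 vascular genes fell. These counts stand beside 2059 of 23410 probe sets passing in that fit. Psca lost its call with quantile normalization, over all probe sets, and when any single array other than DN-Clim replicate 3 was left out. The median of the list of 22 other epithelial keratins was 0.0714 with DN-Clim replicate 3 alone.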
